A study of Solanum tuberosum with 12 samples.

Results

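Among 39027 genes counted in potato (Solanum tuberosum) shoot tips, 172 were well expressed and kept nearly the same share of reads through cryopreservation and through 3 light regimes of recovery. These steady genes were chosen by their mean CPM, the reads of a gene in every 1000000 counted reads of a library, in each of 4 groups. All 4 group means had to lie from 100 to 500 CPM, and the largest mean could be at most 15% above the smallest. Within that window of levels there were 1109 genes, so the steady genes are 15.5% of them. Because the rule used the group means of all 12 libraries, the closeness of those means is a description and not a finding.

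Each group held 3 libraries labelled as biological replicates, each from 10 pooled shoot tips of plants of the genotype Agrie Dzeltenie raised in vitro under cool white tubes. Tips of the first group (N) were not cryopreserved and spent 16 h under cool white fluorescent light at 40 µmol per square metre per second. The other tips were treated with the cryoprotectant dimethyl sulfoxide (DMSO) at 10%, frozen in liquid nitrogen for 1 h, rewarmed, and held for 48 h in darkness on a regeneration medium with zeatin riboside, gibberellic acid and indole acetic acid. They then spent 16 h under cool white fluorescent tubes (CW), under LEDs of 90% red and 10% blue light (LED), or in further darkness (dark), with both lights at 40 µmol per square metre per second. The labels do not say whether group N also passed through darkness or the regeneration medium, so any difference from N covers freezing together with handling.

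Transcripts that hold a constant share of the RNA pool matter because relative methods of measuring expression, such as quantitative PCR, read a gene of interest against reference genes. Such reference genes are usually taken from cell maintenance functions such as the cytoskeleton, protein synthesis and protein turnover, and none of them is constant in every tissue and stress. Freezing and rewarming injures membranes and changes the transcription of many genes, and a change of light does so again in green shoots, so a reference must hold through both. CPM is a share of a library's reads. Equal CPM therefore does not say that a shoot tip held equal amounts of the RNA, and in bulk tissue fewer cells of a type and less RNA per cell cannot be told apart.

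Genes are given by the identifiers of the count tables. None of the 39027 identifiers matched the RefSeq gene table used for names, so no name, function or sequence is attached to a steady gene here. Libraries held from 6342324 to 10572258 counted reads. The least counted steady gene had 9760 reads over the 12 libraries, and no steady gene had fewer than 565 reads in a library. Counting alone gave a median coefficient of variation (CV, SD over mean) of 2.76% for a steady gene in 1 library. No library repeated another: chi-square values over genes, divided by their degrees of freedom, ran from 3.08 to 20.7 between libraries of the same group, and LED replicates 1 and 3 differed most.

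Nearness to the limit was common among the steady genes. Their largest group mean was a median of 1.114 times the smallest, with quartiles of 1.09 and 1.13. Only 5 of the 172 had their largest mean at most 5% above the smallest, 63 had it at most 10% above, and 109 lay between 10% and 15%. No gap separated them from the other 937 genes of the window, since 122 genes lay between 15% and 20%. The ratio over all 1109 genes had a median of 1.34, and 124 genes exceeded 2.

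**Figure D1:**
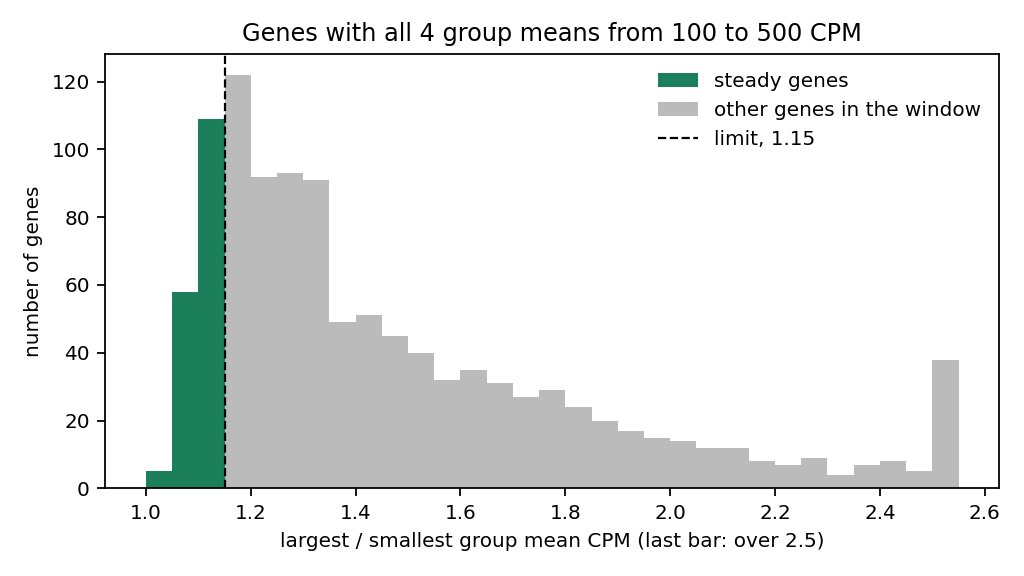
Histogram of the largest over the smallest group mean CPM for the 1109 genes with all group means from 100 to 500 CPM, in steps of 0.05, with the last bar for ratios over 2.5. The 172 steady genes (green) fill the bars left of the limit of 15% above the smallest mean (dashed line), and the distribution runs through the limit without a gap.

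The genes at the limit show how fine the line is. PGSC0003DMG400018465 was just inside it with a ratio of 1.149, and its libraries read 184, 242 and 195 CPM in N, 238, 219.9 and 256 under CW, 216, 235 and 212 under LED, and 217, 213 and 234 in the dark. These groups overlapped throughout, and N replicate 1 was the lowest library. PGSC0003DMG400031057 (ratio 1.149) had group means of 134, 153, 133 and 149 CPM in the order N, CW, LED and dark, and PGSC0003DMG400032169 had a ratio of 1.148. Just outside were PGSC0003DMG400006184 (ratio 1.1504), PGSC0003DMG400016448 (1.151) and PGSC0003DMG400033911 (1.151). PGSC0003DMG400006184 had 171, 159 and 172 CPM in N, 172, 168 and 169 under CW, 184, 184 and 196 under LED, and 189, 204 and 186 in the dark. Its LED and dark libraries were all above its N and CW libraries, while the groups of PGSC0003DMG400018465 on the other side of the limit overlapped.

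The limits on the level had neighbours too. At the lower edge, PGSC0003DMG400025749 was inside with a smallest group mean of 100.2 CPM under LED, and PGSC0003DMG400001863 was outside with 99.3 CPM under CW at a ratio of 1.107. At the upper edge, PGSC0003DMG400007019 was inside with a largest mean of 465 CPM under LED, and PGSC0003DMG400028177 was outside with 509.8 CPM in the dark at a ratio of 1.13. Above the window, 332 genes had all means of at least 100 CPM and a mean over 500, and 10 of them kept within the ratio limit.

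Within the window, agreement with the tips that were never frozen was the narrowest condition. Means lay within 15% of each other, larger over smaller, for 847 of the 1109 genes (76.4%) between LED and CW, for 806 (72.7%) between dark and CW, and for 832 (75.0%) between LED and dark. Against N the numbers were 403 (36.3%) for CW, 382 (34.4%) for LED and 382 (34.4%) for dark. Among the 3 cryopreserved groups together, 612 genes kept within the limit, and 440 of these passed it once N was added. The remaining 172 are the steady genes, 28.1% of those that were even over the 3 recovery conditions. Pairs that share a group share its libraries, and these numbers follow from the group means that the rule used.

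Among the steady genes N did not stand to one side. Its mean was the highest of the 4 for 52 genes and the lowest for 44, and it lay between the cryopreserved means for 76. The dark mean was the highest for 50 genes and the LED mean for 46. Only 24 genes had their highest mean under CW, and 57 had their lowest there. Among the other 937 genes of the window CW also held the highest mean least often, for 142, while the lowest mean was most often that of N, for 392, and was that of CW for 249.

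Steadiness was not equally frequent at all levels. Of genes with a mean of 100 to 150 CPM, 65 of 307 (21.2%) were steady, against 48 of 327 (14.7%) from 150 to 200 CPM, 42 of 338 (12.4%) from 200 to 300 CPM and 17 of 137 (12.4%) from 300 to 500 CPM. A gene near either edge of the window can only be in it when its means are close together, and the part of this in the shares was not tested. The mean level of a steady gene over the 12 libraries had a median of 171 CPM, quartiles of 129 and 242, and a range from 103 to 445 CPM. CPM is not divided by gene length, so the order of genes by CPM is not an order of transcript numbers.

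The 6 genes with the smallest CV over the 12 libraries give the clearest view of a steady level. PGSC0003DMG400030832 had the smallest CV, 3.33%, with 354, 364 and 372 CPM in N, 347, 339.8 and 345 under CW, 352, 364 and 366 under LED, and 382, 360.0 and 365 in the dark. All 3 of its CW libraries were below every other library, by a small margin. PGSC0003DMG400007193 (CV 3.55%) had 145, 155 and 156 CPM in N, 142, 150.0 and 148 under CW, 149.7, 147 and 151 under LED, and 145, 159.6 and 144 in the dark. Its 4 groups overlapped, and the dark group held both its highest value and 1 of its lowest.

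PGSC0003DMG400014964 (CV 3.71%) had the narrowest range of all steady genes, its highest library being 1.114 times its lowest. It read 279, 298 and 296 CPM in N, 278, 295 and 294 under CW, 281, 283 and 287 under LED, and 280.3, 310.3 and 306 in the dark. PGSC0003DMG400023623 (CV 4.01%) read 185, 194 and 187 CPM in N, 188, 196 and 199.6 under CW, 189.7, 197 and 176 under LED, and 187, 183 and 176 in the dark. The groups of both genes overlapped. The highest library was dark replicate 2 for the former and CW replicate 3 for the latter.

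PGSC0003DMG400001632 (CV 4.05%) had the most even group means of all 172, with a ratio of 1.02. The means were 176 ± 12.2 CPM in N, 177 ± 9.73 under CW, 175 ± 4.37 under LED and 178 ± 3.19 in the dark (SD, n = 3). Its single libraries ran from 162 CPM in N replicate 1 to 184 CPM in N replicate 3, so the spread inside N was wider than the gap between any of the means. PGSC0003DMG400013456 (CV 4.11%) was the opposite case. It read 125, 128 and 127 CPM in N, 117, 122 and 118 under CW, 124, 118 and 118 under LED, and 128, 132 and 129.6 in the dark. Its replicates were the closest of all steady genes, with a CV within groups of 1.84% on average, and its dark libraries were all above N, which in turn was all above CW and LED.

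**Figure D2:**
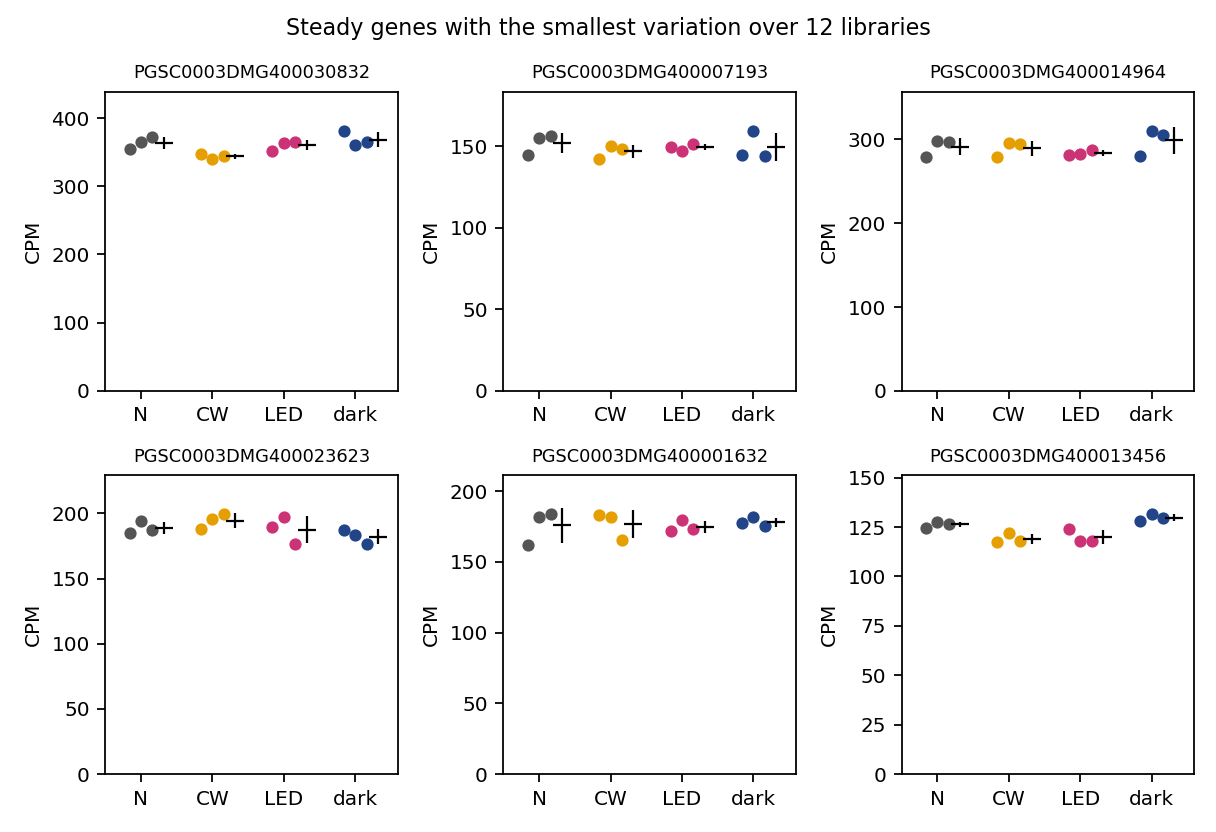
CPM in each of the 12 libraries for the 6 steady genes with the smallest CV over all libraries, with the mean and SD of the 3 libraries of a group beside the points. Every library of these genes lay within a range whose top is at most 1.136 times its bottom.

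At the upper end of the window, PGSC0003DMG400007019 averaged 445 CPM and PGSC0003DMG400020783 averaged 432 CPM. PGSC0003DMG400007019 had 384, 429.7 and 413 CPM in N, 445, 467 and 439 under CW, 438, 473 and 485 under LED, and 442, 489.8 and 430.3 in the dark. All 9 cryopreserved libraries were above the 3 of N for this gene. PGSC0003DMG400020783 had its highest mean under CW, 462 ± 15.0 CPM, and its lowest in N, 405 ± 30.5 CPM (SD, n = 3). At the lower end, PGSC0003DMG400001295 averaged 103 CPM with a range from 89.7 CPM in N replicate 1 to 116 CPM in dark replicate 2, and its groups overlapped. PGSC0003DMG400025749 averaged 105 CPM, with its highest mean under CW, 113 ± 7.81 CPM, and its lowest under LED, 100.2 ± 2.76 CPM (SD, n = 3).

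Single libraries strayed further than the means. Over all 12 libraries, the highest value of a steady gene was a median of 1.23 times its lowest, and 102 of the 172 (59.3%) kept this range within 25%. Among the other genes of the window the median was 1.65 times, and 18 of 937 (1.92%) kept within 25%. The range over libraries cannot be smaller than the ratio of group means that the rule limited, so this contrast follows in large part from the choice and nothing is read from it. All 172 stayed within 1.5 times. All 12 libraries were within 10% of the gene's own mean for 46 steady genes and within 20% for 169. The CV over 12 libraries ranged from 3.33% to 11.8%, with a median of 6.28%.

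A steady mean did not require steady replicates. PGSC0003DMG400008751 had the largest spread within groups, a CV of 11.7% on average, with 113, 86.0 and 118 CPM in N, 104, 103 and 114 under CW, 124, 105 and 111 under LED, and 109.9, 113 and 82.6 in the dark. N replicate 2 and dark replicate 3 were the low libraries, and the group means still differed by no more than 1.109 times. PGSC0003DMG400015692 (CV 10.1% within groups) had 123, 177 and 135 CPM in N, 150.4, 146 and 139 under CW, 178, 164 and 134 under LED, and 141, 142 and 135 in the dark. Here N replicate 2 and LED replicate 1 were high, while CW and dark were tight. Only 2 steady genes had a CV over 15% in any group, against 251 of the other 937 genes in the window. Genes with noisy libraries have noisier means and pass the rule less often, so nothing is read from this contrast.

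Replicates of steady genes were closer together than those of the other genes of the window in each of the 4 groups. The CV over the 3 libraries of a group, averaged over groups, had a median of 4.84% for steady genes and 6.77% for the others. By group, the medians were 5.26% against 6.85% in N, 3.80% against 5.42% under CW, 4.36% against 8.12% under LED, and 4.97% against 5.75% in the dark. Under LED the others had the widest spread of the 4 groups, and the steady genes the second smallest. In all, 140 steady genes (81.4%) had a CV of at most 10% in every group, against 391 of the others (41.7%). The rule did not use this spread, but a gene with noisy libraries has noisier means and passes a limit on means less often, so the 2 measures are not independent and no test is given.

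**Figure D3:**
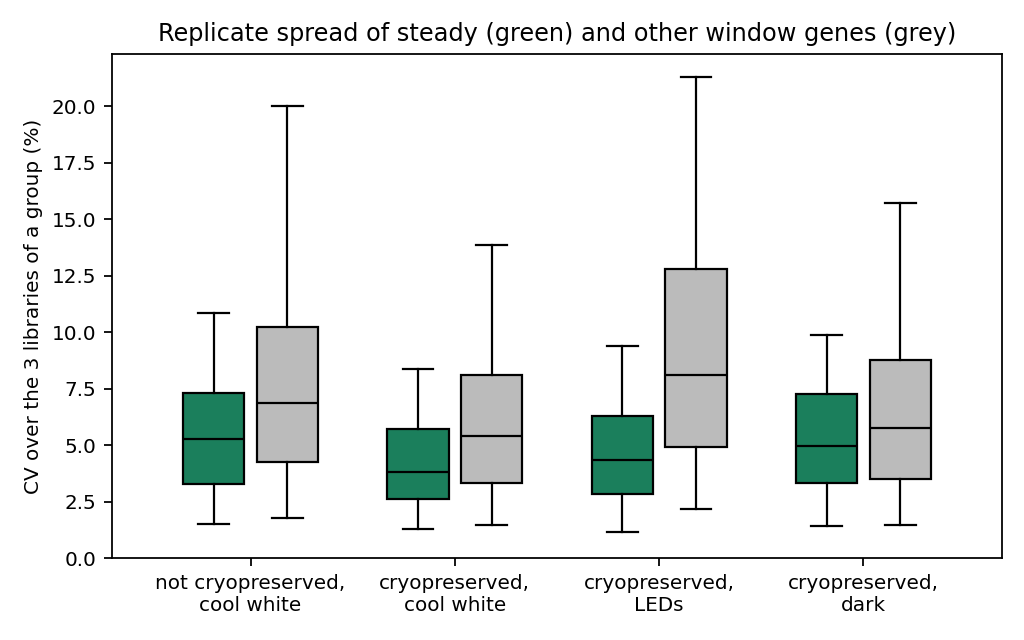
CV over the 3 libraries of a group for the 172 steady genes (green) and the other 937 genes of the window (grey), with boxes from the lower to the upper quartile, a line at the median, and whiskers from the 5th to the 95th percentile. The steady genes had the lower median in each of the 4 groups, and the gap was widest under LED, 4.36% against 8.12%.

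The reads of the steady genes summed to 3.28% ± 0.108 of a library in N, 3.25% ± 0.0336 under CW, 3.30% ± 0.0519 under LED and 3.31% ± 0.0816 in the dark (SD, n = 3). In single libraries the share ran from 3.16% in N replicate 1 to 3.40% in dark replicate 2. The spread inside N was larger than the gap between any of the group means. All 1109 genes of the window together took 23.1% in N, 22.5% under CW, 22.6% under LED and 22.9% in the dark, so an even share was not particular to the steady genes, and the rule on group means bears on it directly. In each library between 136 and 167 of the 172 genes were within 10% of their own mean.

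Where the steady genes sit depends on how libraries are scaled. TMM factors, which edgeR sets so that most genes do not change between libraries, averaged 0.987 in N, 1.03 under CW, 1.02 under LED and 0.972 in the dark, and CPM on such factors is called TMM-normalized. On column totals, the median log2 deviation of the steady genes from their own mean averaged -0.00 in N, -0.02 under CW, 0.01 under LED and 0.01 in the dark. On the TMM scale the averages were 0.02, -0.05, -0.01 and 0.05. All 3 dark libraries were then above all the others, and CW replicates 1 and 2 were the lowest. N replicate 1 moved from the lowest of the 12 libraries on totals, at -0.06, to 0.00 on the TMM scale.

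**Figure D4:**
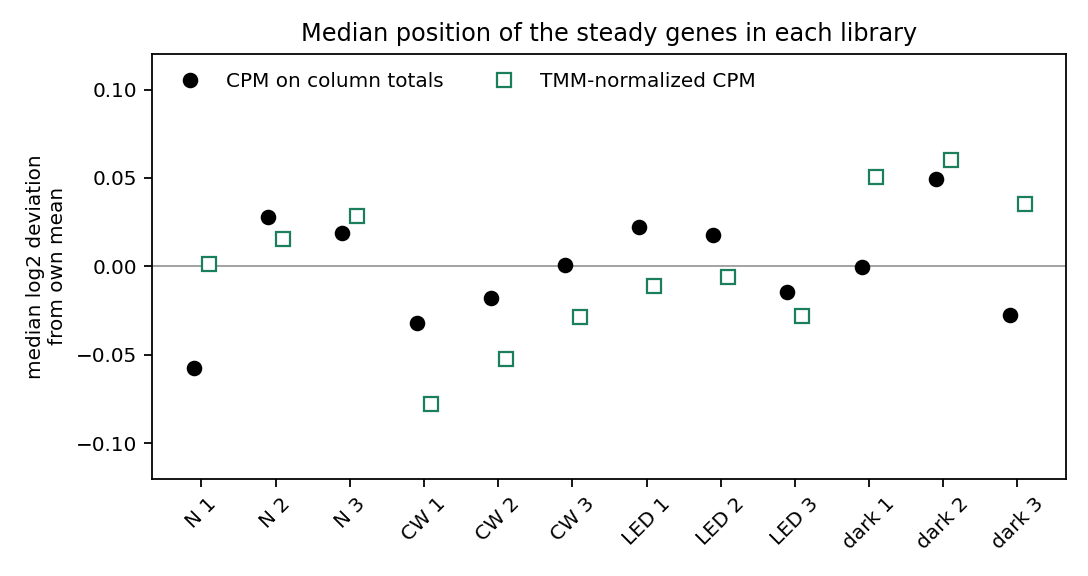
Median over the 172 steady genes of the log2 deviation from each gene's own mean, in each of the 12 libraries, on column totals (filled circles) and after TMM normalization (open squares). On totals the values run from -0.06 to 0.05 with the groups mixed, and after TMM normalization the dark libraries lie from 0.04 to 0.06 and the CW libraries from -0.08 to -0.03.

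The rule applied to TMM-normalized CPM chose 136 genes, 109 of them shared with the 172. With DESeq2 size factors it chose 107 genes, 79 of them shared, and with upper quartile factors 118, of which 65 were shared. Of the 172, 60 genes met the rule under all 4 scalings. These included PGSC0003DMG400007193, PGSC0003DMG400014964, PGSC0003DMG400023623 and PGSC0003DMG400001632 among the 6 described first, with a highest ratio over the scalings of 1.141, 1.118, 1.085 and 1.098. PGSC0003DMG400030832 reached 1.17 and PGSC0003DMG400013456 reached 1.18. No steady gene exceeded 1.27 under any of the 4 scalings, the highest value being under upper quartile factors.

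Differences between pairs of groups were fitted for all genes with edgeR's quasi-likelihood test on TMM-scaled counts, and a gene was called at a Benjamini-Hochberg adjusted p under 0.05 over the 19920 genes tested. All 172 steady genes were among those tested. The rule used these same contrasts, so the counts are given beside the share of all genes called and nothing is read from their difference. Between CW and N, 17 steady genes were called, all lower under CW, while 49.3% of all tested genes were called. Between LED and N, 8 were called, all lower under LED (50.6% of all genes). Between dark and N, 10 were called, all higher in the dark (55.2% of all genes), and between dark and CW 9 were called, all higher in the dark (15.0% of all genes).

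No steady gene was called between LED and CW (1.44% of all genes) or between LED and dark (10.6% of all genes). At an unadjusted p under 0.05 in the same edgeR test there were 14 and 25, and the share of all genes at that threshold was not taken. Of the 172 steady genes, DESeq2 called 2 and 5 in these pairs, where it called 695 and 2217 of all genes. With limma voom none of the 172 was called in either pair, where 423 and 1868 of all genes were called. The test of any difference among the 4 groups called 15 of the 172, where 61.0% of all tested genes were called. In all 40 steady genes were called in at least 1 pair, 36 of them in exactly 1 and 4 in 2 pairs, and 132 in none. Of all tested genes 69.8% were called in at least 1 pair, and of all genes in the window 81.3%. The rule used these contrasts, so nothing is read from the difference. Single libraries and the samples fitted moved the counts of each pair. The 17 calls between CW and N became 4 without N replicate 3, 6 and 5 without CW replicate 1 or 2, and 36 without dark replicate 2. The 8 between LED and N became 1 without LED replicate 3, 2 without N replicate 3, 4 without N replicate 1, 5 without CW replicate 2 or LED replicate 2, and 0 with only the 2 groups compared, where edgeR gave the count. The 10 between dark and N became 3 without any 1 of the dark libraries, 4 and 5 without N replicate 1 or 3, and 6 without CW replicate 2. The 9 between dark and CW became 0 without CW replicate 1 or dark replicate 1, and 1 to 5 without CW replicate 2 or 3, dark replicate 2 or 3, or N replicate 3. Between LED and dark, 1 gene was called without LED replicate 1 or 3. The calls also depended on the scaling, as did their direction between dark and N. With library size only, 5 steady genes were called in any pair, 2 of them between CW and N, 3 between LED and N (2 higher and 1 lower) and 1 lower in the dark against N. With upper quartile factors 78 were called, and the 11 between dark and N were then all lower in the dark. Over all tested genes, 13895 were called in at least 1 pair with library size only and 13988 with upper quartile factors.

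Called differences had absolute log2 fold changes between 0.17 and 0.27. The rule capped the differences of group means on column totals, and the precision of the fit sets how small a called change can be. The fit was on the TMM scale, where the ratio of group means of a steady gene reached 1.21, beyond the cap. This range therefore follows in large part from the choice, the scaling and the fit. PGSC0003DMG402027531 had 278, 287 and 294 CPM in N, 244, 243 and 262 under CW, 273, 264 and 259 under LED, and 245, 268 and 238 in the dark. Its N libraries were all above those of the other groups, and its log2 fold change for CW against N was -0.25 (SE 0.07, 95% interval -0.40 to -0.10). PGSC0003DMG400023474 had 368, 411 and 409.6 CPM in N and 356, 348 and 346 under CW, which did not overlap. Its LED libraries (400.3, 385 and 381 CPM) and dark libraries (372, 392 and 387 CPM) lay within the range of N. The log2 fold change for CW against N was -0.23 (SE 0.07, 95% interval -0.38 to -0.09), and the call was lost with library size only, at -0.18 and an edgeR adjusted p of 0.0563, the highest over all alternatives.

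PGSC0003DMG400032169, at the limit of the rule, had tight N libraries and a wide spread under CW and LED. Its values were 342, 341 and 342 CPM in N with an SD of 0.281, and 299.6, 281 and 329.5 CPM under CW with an SD of 24.3. Its highest mean was under LED, with 376, 350.4 and 319 CPM and an SD of 28.5, and its lowest under CW. The LED and CW libraries overlapped. N and CW did not overlap, and the log2 fold change for CW against N was -0.23 (SE 0.08, 95% interval -0.40 to -0.05). The call was lost without N replicate 1 or 3, without CW replicate 1 or 2, with library size only, with no filter and with a replicate block. The adjusted p from edgeR was 0.036 with all libraries and reached 0.156 without CW replicate 2, the highest over all alternatives.

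A gene that was not called is not thereby shown to be equal between groups. The genes were chosen for small differences between these same means, so the intervals below describe the fit's precision and do not keep their stated coverage. The 95% interval of a log2 fold change reached a median of 0.17 to either side of the estimate in each of the 6 pairs. All 172 genes had every interval within 1.5-fold, which the choice of small differences together with this precision left little room to exceed. Within 25%, larger over smaller, the number ranged from 112 between dark and CW to 147 between LED and CW, and 52 genes kept all 6 intervals within it. Within 15%, the limit of the rule itself, it ranged from 22 between dark and CW to 39 between LED and dark.

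The median log2 fold change of the steady genes was -0.07 for CW against N, -0.04 for LED against N and 0.03 for dark against N, where the medians over all tested genes were 0.05, 0.03 and -0.01. For dark against CW it was 0.10, against -0.00 over all genes, for LED against CW 0.04 against -0.01, and for LED against dark -0.06 against 0.01. The median absolute log2 fold change over all genes was 0.44 for CW against N and 0.51 for dark against N, and 0.09 in both pairs for the steady genes, which the rule held small. The medians of the steady genes moved with the scaling. For CW against N the value was -0.02 with library size only and -0.16 with upper quartile factors. For LED against N it was 0.00 and -0.10, for dark against N 0.00 and -0.04, and for dark against CW 0.02 and 0.12, in the same order. With library size only, the medians for LED against N and for LED against dark turned to just above 0. The sign for dark against N turned with upper quartile factors, and without dark replicate 2 its value was -0.00. Scaling by library size only moved the median over all genes for CW against N to 0.11, and upper quartile factors moved it to -0.04.

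The ratio was also taken in libraries that a choice had not used. The rule was applied to 2 libraries a group, and the 4 libraries with the left-out replicate number were then compared, 1 of each group. Without replicate 1 the rule chose 167 genes, and the largest of the 4 left-out libraries was a median of 1.18 times the smallest, against 1.49 times for the genes of the window it did not choose. Without replicate 2 it chose 151 genes, with 1.142 against 1.42 times, and without replicate 3 it chose 188 genes, with 1.19 against 1.49 times. In each case the chosen genes were the closer ones in the libraries that had not been used. Those libraries came from the same 4 groups, and the rule was set with earlier results of these data known. Genes not chosen had group means further apart by the rule, so the contrast is a description and not an independent check.

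The limit itself was met less often in left-out libraries, each of which is a single value and not a mean. At most 15% between the largest and the smallest was kept by 63 of the 167 genes (37.7%), 82 of the 151 (54.3%) and 54 of the 188 (28.7%), in the order of the replicate left out. Among genes of the window not chosen the shares were 6.77%, 7.03% and 4.93%. At most 25% was kept by 75.4%, 89.4% and 73.4% of the chosen genes, against 19.0%, 24.5% and 18.7% of the others. A ratio over 1.5 was reached by 4, 0 and 1 of the chosen genes, with a highest value of 1.94. Of the 172 steady genes, 125, 135 and 140 were chosen again without replicate 1, 2 or 3. Genes share their libraries and are not replicates, so these shares carry no test.

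**Figure D5:**
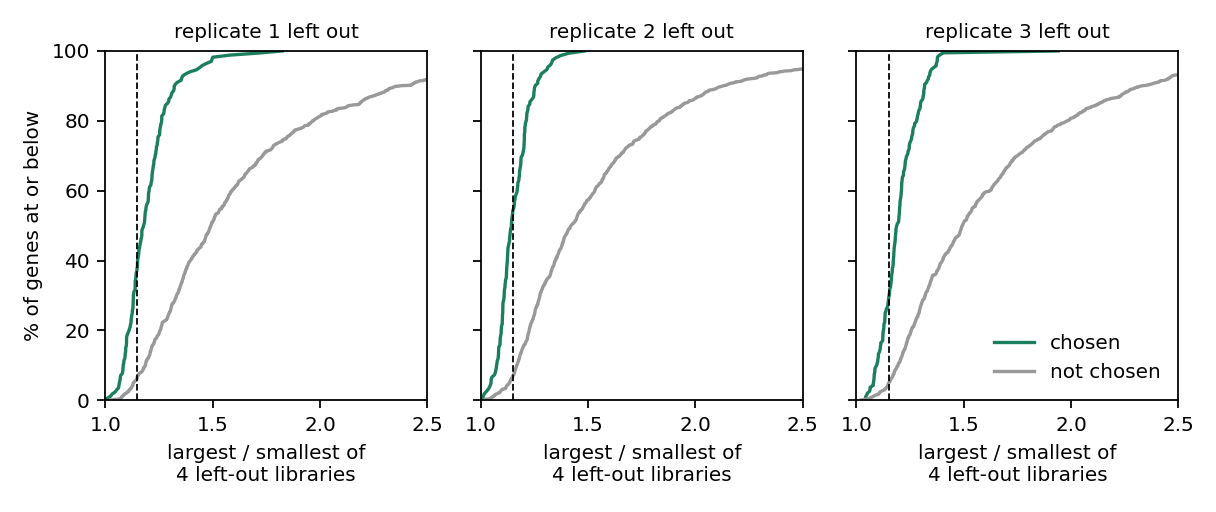
Share of genes (y axis, percent) whose largest left-out library is at most a given multiple (x axis) of the smallest of the 4 left-out libraries, for genes the rule chose from the other libraries (green) and the rest of the window (grey), with replicate 1, 2 or 3 left out. The dashed line marks the limit of 15%, which 37.7%, 54.3% and 28.7% of the chosen genes kept, against 6.77%, 7.03% and 4.93% of the rest.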

How the data were processed

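RNA of 12 libraries was measured by stranded sequencing of polyadenylated RNA. The deposited values are raw read counts per gene, not normalized by the authors, 1 file per library. Per the submitters' processing notes, reads were processed with TopHat2 2.0.8b and Bowtie 1.1.1, featureCounts 1.5.0 gave counts, and FastQC and DESeq2 are also named. Genome build, annotation, strand setting and handling of reads with several positions: not given in the sources used here. Overlapping or near-identical genes may therefore have uncertain values.

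CPM was computed on column totals. Fits used R 4.3.3 and edgeR 4.0.16 (filterByExpr at its defaults of 10 reads and 15 reads in total, TMM factors, glmQLFit and glmQLFTest, group as factor, all 12 libraries), with two-sided tests adjusted by Benjamini-Hochberg over all 19920 genes. Each standard error is the absolute log2 fold change divided by the root of F. The fits were also run on simulated data, with changes larger than those of the steady genes planted in a small part of the genes of the CW group. That run does not test how often changes as small as those here are called. DESeq2 1.42.0 and limma 3.58.1 voom were alternatives. Steady genes were named by extremes of CV, level and ratio, or by the smallest adjusted p. Lists of usual reference genes and of cell type markers had no matched identifier and gave no result. The members and lists were chosen with earlier results of these data known. The libraries are labelled as biological replicates, but nothing says that they came from separate cultures. Spreads may therefore be technical in part and may not hold differences between cultures.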

Additional observations from a re-analysis of the deposited data

How the results depend on the processing

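The number of steady genes, 172, was within 1.5 times under TMM factors, upper quartile factors, group medians and every left-out library or replicate number (151 to 188 genes). It was 107 with DESeq2 size factors, 63 at a limit of 10% above the smallest mean, 386 at 25% and 446 in a window of 50 to 1000 CPM. A similar count did not mean the same genes. Of the 172, 109 were kept under TMM factors, 79 with DESeq2 size factors and 65 with upper quartile factors. Steady genes called in at least 1 pair (40) numbered 69 with DESeq2 size factors, 78 with upper quartile factors, 5 with library size only, 76 with DESeq2, 9 with no filter and 24 with a replicate block, and from 13 (without N replicate 3) to 46 (without dark replicate 2) with a library left out, with 22 and 17 without CW replicate 1 or 2 and 23 and 25 without dark replicate 1 or 3. Those called for any difference (15) numbered 38, 49, 0, 50, 2 and 5 in the same order, and from 2 (without CW replicate 1 or 2) to 19 (without dark replicate 2), with 8 and 3 without N replicate 1 or 3, 5 without LED replicate 2 and 6 without dark replicate 1 or 3. Over all genes tested in each setting, in that order, 14008, 13988, 13895, 13370, 14235 and 13621 were called in at least 1 pair (main fit 13908). For any difference the counts over all genes were 12184, 12165, 12128, 11794, 12240 and 11731 (main fit 12156). With a library left out they ran from 12626 to 14175 and, for any difference, from 10506 to 12518. Of the 136 genes chosen on TMM-normalized CPM, a choice added after seeing the data, 10 were called in at least 1 pair. Of all tested genes 69.8% were called in at least 1 pair. The choice and the test then shared a scale, so nothing is read from the lower number. The causes were not tested. Leaving out a library moved the median CV within groups, 4.84%, to between 4.45% and 4.93%, and TMM factors moved it to 4.48%. The median ratio in left-out libraries, 1.17 averaged over the 3 turns, was 1.17 with TMM factors, a setting also added later.

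Deviations from the group mean in same-numbered libraries had correlations across genes between -0.24 and 0.20, with 4 of 18 over 0.1. For libraries of different groups and numbers the range was alike, from -0.22 to 0.21. Of the 12 libraries, 4 correlated best with their own number. The labels do not state a pairing by replicate number. The replicate block gave 24 and 5 calls, and why these were fewer was not tested.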
